A study of Danio rerio with 24 samples.

Results

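The adult zebrafish caudal fin at 1 day post amputation (dpa), the earliest day of adult regrowth in the series, was set against the unamputated adult fin. The comparison used 6 of the 24 arrays of the series, 3 in each group, and 15502 of the 15617 probe sets on the array, which are all except 115 controls. The series as a whole asked which genes change as fins regrow in adults and in larvae. The 1 dpa arrays (replicates b, d and e) came from adult males of the AB strain. Their caudal fins had been cut where the rays fork, and the fish had been injected with phosphatidylcholine liposomes, the vehicle of a dioxin study, without dioxin. The unamputated arrays (replicates 1, 2 and 3) came from fins of AB males that were not regenerating, and no injection is stated for them. Both groups were kept at 27 °C, each replicate pooled the tissue of 10 fish, and 2.5 µg of RNA was labelled per array. Regenerating tissue was cut with up to 2 ray segments of stump on the body side of the cut, whereas the labels do not say which stretch of the unamputated fin was used. Amputation, injection, the stretch of fin and any difference in the handling of the arrays cannot be told apart in this design. Arrays of adult fins at 3 and 5 dpa, also from liposome-injected males, served for comparison by day.

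A cut fin is first closed by epidermal cells that crawl over the stump, while neutrophils and macrophages enter the wound. Fibroblasts and osteoblasts near the cut then lose mature features, re-enter the cell cycle and gather under the wound epidermis as the blastema, from which the lost rays regrow. Retinoic acid, activin, Wnt, Fgf, Igf and Hedgehog signals are known to act in this process in zebrafish. Each ray is made of dermal bone and ends in actinotrichia, stiff fibrils that hold the fin fold open.

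The deposited values are linear ratios to a value that differs from probe set to probe set, so a ratio of 1 has no absolute meaning and levels of different genes cannot be compared. The presence of a cell type can therefore not be read from its markers here, but only their difference between groups. In a piece of tissue, more cells of a type and more RNA per cell also cannot be told apart. Array b stood apart in the 1 dpa group. Over all probe sets its log2 values correlated with those of d and e at r = 0.814 and 0.832, while d and e correlated at 0.899 and the unamputated arrays among themselves at 0.875 to 0.939. The 3 dpa arrays correlated among themselves at 0.841 to 0.868, not far above array b, and the 5 dpa arrays at 0.883 to 0.903. Between 1 dpa and unamputated arrays r ran from 0.516 to 0.725. The 18 hybridisation control probe sets, which report RNA added in the laboratory and not from the fish, averaged −0.79, −1.07 and −1.04 on the log2 scale at 1 dpa, against 0.78, 0.54 and 0.10 on unamputated arrays. The array medians were −0.16 to −0.19 at 1 dpa, against −0.05 to 0.00 on unamputated arrays. The part of the hybridisation control difference in the results was not tested. Results with the arrays centred on their medians and with single arrays left out are given below.

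Changes are given as log2 differences, 1 dpa minus unamputated, with the standard error of a limma model over the 12 adult arrays. A probe set was called where its Benjamini-Hochberg adjusted p over all 15502 was under 0.05 and its change at least 2-fold, and "rose" and "fell" are used for such calls. At 1 dpa 2492 probe sets were called, which is 16.1% of those tested. Of these 1345 (8.68% of all) were higher and 1147 (7.4%) lower, and 94 changed by at least 8-fold, 61 of them upward. The median over all probe sets was −0.17. With each array centred on its median this became −0.03 and the split turned to 1680 higher and 818 lower. The groups did not overlap for 56.6% of all probe sets (19.7% higher and 36.8% lower at 1 dpa), so lack of overlap alone marks no gene. Leaving out array b raised the number of calls to 3024, of which 2394 were among the 2492. Without any other single array of the 6 the number lay between 2106 and 2543. With 1 probe set per gene, chosen by its name alone, 8793 genes were tested, of which 916 (10.4%) rose and 624 (7.1%) fell. The groups did not overlap for 56.5% of genes, 24.0% higher and 32.5% lower. The shares of 10.4% and 7.1% are the background for every list count below, and a list near them is not set apart by its count. The lists were chosen with earlier results of these data known, so their counts describe and do not test.

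**Figure D1:**
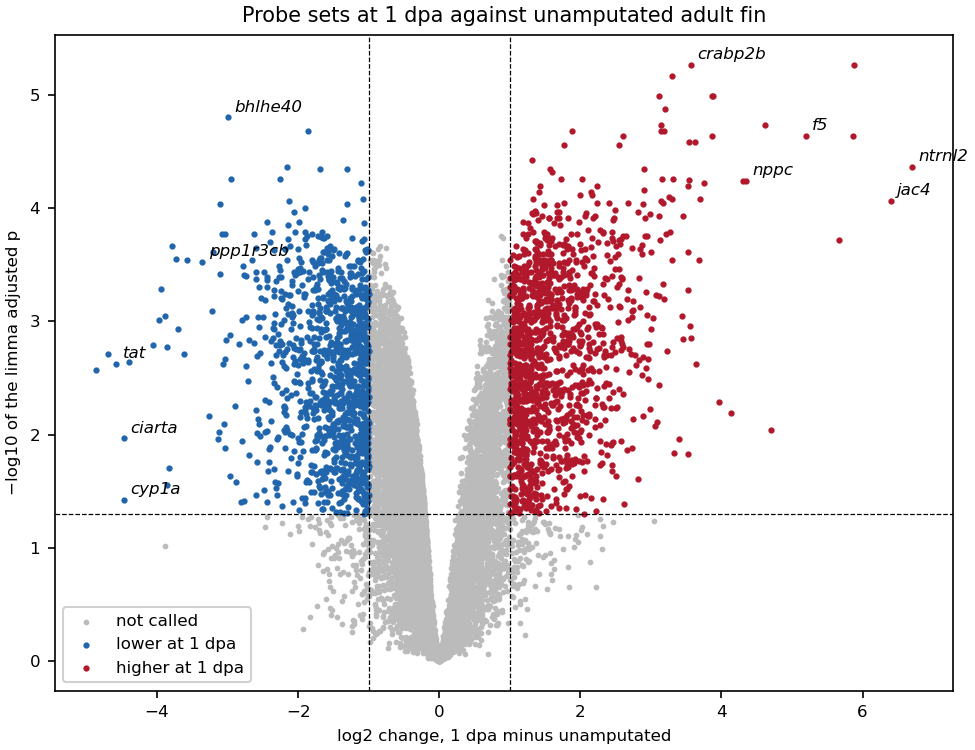
Each point is 1 of 15502 probe sets, with its log2 change (1 dpa minus unamputated) across and −log10 of its limma adjusted p up. Dashed lines mark the 2-fold and 0.05 limits, beyond which 1345 probe sets were higher and 1147 lower at 1 dpa, and named points include ntrnl2 and jac4 at the far right and tat, ciarta and cyp1a at the far left.

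The genes with the largest rises included the genes ntrnl2 and jac4, a clotting factor, a hormone precursor, a protease inhibitor and tubulins. ntrnl2 read 64.8, 102 and 114 at 1 dpa, against 0.883, 0.915 and 0.821 in unamputated fins, a rise of 6.71 ± 0.49 on the log2 scale (limma adjusted p = 4.3e-05). jac4 read 65.3, 106 and 104 at 1 dpa, against 0.910, 1.19 and 1.1 in unamputated fins, a rise of 6.40 ± 0.55 (limma adjusted p = 8.6e-05). All 3 regenerating arrays lay far above all unamputated ones for both genes, and array b was the lowest of the 3. Genes were taken for the size of their change only if called and without overlap of the groups. Lack of overlap was therefore fixed in advance for the largest rises and falls. The clotting factor V gene f5 read 4.06, 5.97 and 7.39 at 1 dpa, against 0.126, 0.152 and 0.189 in unamputated fins, and rose by 5.2 ± 0.35. nppc, which encodes the precursor of C-type natriuretic peptide, read 12.6, 11.6 and 8.78 at 1 dpa, against 0.710, 0.649 and 0.333 in unamputated fins, and rose by 4.35 ± 0.34. The metalloproteinase inhibitor gene timp2b read 8.21, 3.52 and 6.41 at 1 dpa, against 0.269, 0.262 and 0.337 in unamputated fins, and rose by 4.31 ± 0.34. In these 3 genes too the groups were far apart, with less spread among arrays than between groups.

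Of the other large rises, gda, the guanine deaminase gene, rose by 3.86 ± 0.26, and the tubulin genes tubb5 and tuba1b rose by 4.62 ± 0.28 and 3.87 ± 0.21. Rises of pabpc1a and copa differed strongly between the 1 dpa arrays. pabpc1a, for a poly(A) binding protein, read 1.26, 13.6 and 10.8 at 1 dpa, against 0.431, 0.328 and 0.0747 in unamputated fins (a rise of 4.70 ± 1.17), and its other probe sets gave 1.07 (called) and 0.11. copa, for a coat protein of Golgi vesicles, read 0.853, 6.51 and 5.42 at 1 dpa, against 0.284, 0.231 and 0.120 in unamputated fins (a rise of 3.97 ± 0.87), and its other probe set gave 0.29. In both genes array b lay between the unamputated arrays and arrays d and e, and the size of the rise depended on the probe set.

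The largest falls included genes of amino acid and drug metabolism, the circadian clock, bone collagen and glycogen. tat, the tyrosine aminotransferase gene, read 0.585, 0.0288 and 0.0796 at 1 dpa, against 3.25, 2.34 and 2.40 in unamputated fins, a fall of 23.9-fold (log2 change −4.58 ± 0.85, limma adjusted p = 0.0024). cyp1a, a cytochrome P450 gene switched on by the aryl hydrocarbon receptor, read 2.32, 0.0952 and 0.0945 at 1 dpa, against 6.57, 4.81 and 7.25 in unamputated fins (log2 change −4.47 ± 1.55). ciarta, which encodes a repressor of the clock, read 0.875, 0.0253 and 0.0214 at 1 dpa, against 1.72, 2.09 and 1.44 in unamputated fins (log2 change −4.47 ± 1.15). For all 3 genes array b lay between the other 1 dpa arrays and the unamputated fins. The groups did not overlap, which was a condition for a place among the largest falls. The cyp1a call did not survive the loss of any single array other than b (limma adjusted p 0.076 to 0.12), nor centring of the arrays or quantile normalization, and ciarta was not called with the 2 groups fitted alone (limma adjusted p = 0.052). Falls of similar size were found for slc25a55b, a mitochondrial carrier gene (−3.97 ± 0.61), for znf395b, a zinc finger gene (−3.86 ± 0.66), for zgc:136930 (−3.82 ± 1.13, not called without array 1, 2 or d, limma adjusted p 0.051 to 0.074), and for ppp1r3cb, which brings a phosphatase to glycogen (−3.36 ± 0.39).

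**Figure D2:**
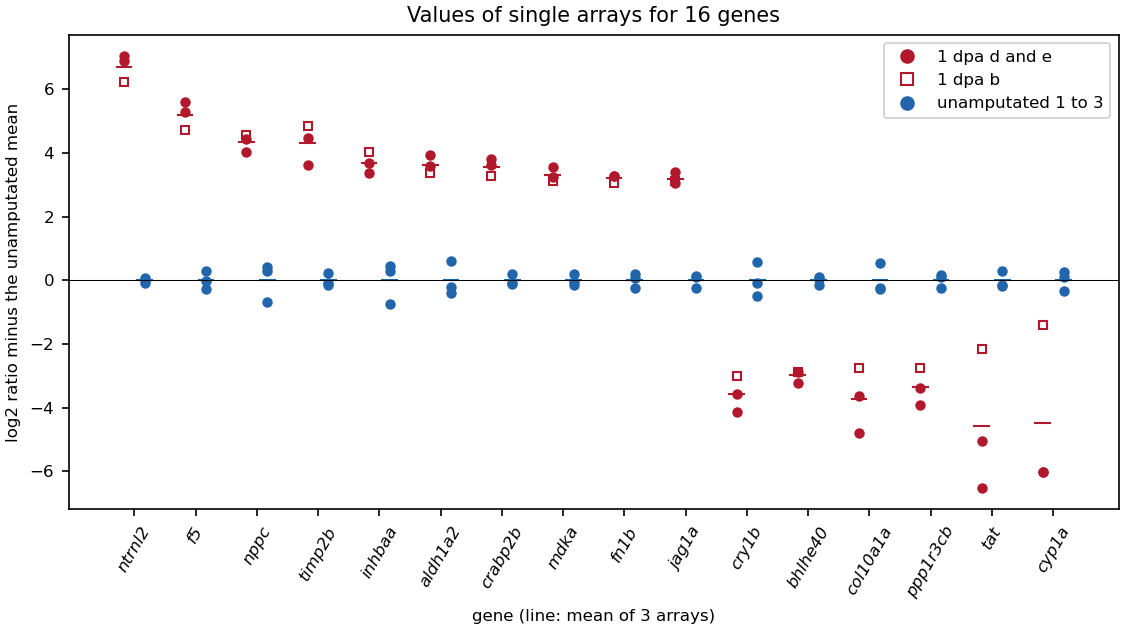
The log2 ratio of each array minus the mean of the 3 unamputated arrays is plotted for 16 genes, 1 dpa (red) left of unamputated (blue), with array b as an open square and the mean as a line. The 10 genes on the left are higher on all 3 arrays at 1 dpa and the 6 on the right lower, and for tat and cyp1a array b lies apart from d and e.

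Of 31 genes of early stress and wound response 3 rose and 4 fell (2 fell without array 2 or e), with a median change of −0.59 (all genes −0.09). The AP-1 genes of the Fos family that were called were higher. fosl1b read 10.0, 13.4 and 10.6 at 1 dpa, against 1.70, 1.00 and 1.98 in unamputated fins, a rise of 2.91 ± 0.27, and fosl2 read 3.17, 7.31 and 5.01 at 1 dpa, against 1.13, 1.58 and 0.968 in unamputated fins, a rise of 2.02 ± 0.38, with further probe sets of fosl2 at 1.95 and 2.11. jun, the partner of Fos proteins in AP-1, was lower, at 1.17, 0.974 and 0.609 at 1 dpa, against 3.07, 2.30 and 1.81 in unamputated fins, a fall of 1.40 ± 0.28 on the log2 scale. junba (0.39 ± 0.28) and atf3 (−0.28 ± 0.40) were not called. The paralogs klf2a and klf2b, which encode factors known to respond to blood flow, moved apart, klf2a rising by 1.66 ± 0.44 and klf2b falling by 1.74 ± 0.44, and neither was called when the 2 groups were fitted alone (limma adjusted p = 0.058 and 0.054).

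Chemokine genes also went both ways among the 33 cytokine and chemokine genes, of which 5 rose and 6 fell. The stromal chemokine cxcl12a read 0.797, 0.237 and 0.382 at 1 dpa, against 1.81, 3.08 and 1.59 in unamputated fins, a fall of 2.31 ± 0.40 (another probe set −3.70), whereas its paralog cxcl12b read 2.45, 1.95 and 3.40 at 1 dpa, against 0.483, 0.895 and 1.24 in unamputated fins, a rise of 1.64 ± 0.33. cxcl14 fell by 2.59 ± 0.33 and ccl25b, a chemokine of epithelia in mammals, by 1.87 ± 0.44. tgfb1a, a growth factor that damps inflammation and drives scar matrix, rose by 2.1 ± 0.49. Of the inhibitors, socs3b, a brake on cytokine receptors, rose by 2.03 ± 0.28, while socs3a was not called (−0.87 ± 0.48). tnfaip6 encodes a protein that binds hyaluronan at inflamed sites and read 15.6, 38.9 and 32.1 at 1 dpa, against 1.79, 3.47 and 1.48 in unamputated fins, a rise of 3.69 ± 0.42 (another probe set 3.17). Every regenerating array lay above every unamputated one, as for 24.0% of all genes. The gene of the interleukin il1b had no probe set assigned. Of 15 interferon response genes 0 were called in limma, and 2 had an unadjusted p under 0.05, both lower at 1 dpa.

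Of 42 leukocyte genes 10 rose and 2 fell (11 and 5 without array b). Of 16 macrophage genes 7 rose and 9 were not called, with a median of 0.90. Without array d 5 rose, and without b 8. grna.1, a progranulin gene, read 13.5, 8.79 and 14.2 at 1 dpa, against 0.987, 1.01 and 1.08 in unamputated fins, a rise of 3.54 ± 0.24. slc7a7, an amino acid transporter of macrophages and microglia, rose by 2.54 ± 0.33, the lysosomal protease gene lgmn by 1.69 ± 0.21, and c1qc, for a complement subunit that macrophages make, by 1.49 ± 0.27. Of 14 pan-leukocyte genes 1 rose, 1 fell and 12 were not called, with a median of −0.27. The rise was that of the actin bundling gene lcp1, which read 3.83, 3.65 and 2.97 at 1 dpa, against 1.12, 1.00 and 1.14 in unamputated fins, a rise of 1.67 ± 0.22. The fall was that of cd74b (−1.06 ± 0.18), which was under 2-fold without array e (−0.88), after centring (−0.92) and after quantile normalization (−0.42). The macrophage gene mpeg1.1 had no probe set assigned. Of 7 neutrophil genes 2 rose and 5 were not called, with a median of 0.36. mpx (myeloperoxidase, −0.85 ± 0.34) and lyz (lysozyme, −0.79 ± 0.75) were not called. The collagenase gene mmp13a, made by neutrophils and by wound epidermis in fish, read 2.60, 0.434 and 0.416 at 1 dpa, against 0.0822, 0.0540 and 0.0794 in unamputated fins, a rise of 3.46 ± 0.57 in which array b was the highest. The other neutrophil rise was that of srgn (1.08 ± 0.19), which was under 2-fold without unamputated array 3 (0.89). Of 5 lymphocyte genes 1 fell and 4 were not called, with a median of −0.28. The fall was that of the lymphocyte factor gene ikzf1 (−1.99 ± 0.40).

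Of 34 complement and acute phase genes 3 rose and 2 fell, a share near that of all genes. Besides f5, hp, the gene of haptoglobin, which binds free haemoglobin, read 11.1, 5.86 and 7.97 at 1 dpa, against 0.992, 0.909 and 1.58 in unamputated fins, a rise of 2.83 ± 0.36, and the annexin gene anxa2a rose by 1.19 ± 0.13. The falls were those of cfd, complement factor D (−2.07 ± 0.37), and plaua, a plasminogen activator (−1.94 ± 0.36).

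Of 41 wound matrix genes 6 rose and 5 fell (10 and 6 without array b, 6 and 3 without d). fn1b read 4.61, 5.40 and 5.40 at 1 dpa, against 0.582, 0.471 and 0.637 in unamputated fins, a rise of 3.20 ± 0.18 (limma adjusted p = 1.3e-05), and fn1a rose by 1.95 ± 0.26, with other probe sets at 3.14 (called) and 0.98 (not called). itga5, the integrin subunit that binds fibronectin, read 7.96, 7.37 and 11.2 at 1 dpa, against 1.71, 1.82 and 0.950 in unamputated fins, a rise of 2.60 ± 0.26. The probe set used for the tenascin C gene tncb was not called (−0.38 ± 0.10), while its other probe set was called at 4.13, so the direction for tncb depends on the probe set. The surface proteoglycan genes gpc1b and sdc2 rose by 1.83 ± 0.23 and 1.74 ± 0.28, and thbs3a, a thrombospondin gene, by 2.15 ± 0.41. Of the falls, efemp2b, which encodes an elastic fibre protein, changed by −1.79 ± 0.23, ccn2a, a matricellular gene and a target of Yap, by −1.62 ± 0.41, and the laminin gene lamc3 by −1.19 ± 0.26.

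Of 30 genes of proteases and their inhibitors 10 rose and 1 fell, with a median of 0.69. Beside timp2b and mmp13a, the membrane metalloproteinase gene mmp14b rose by 1.49 ± 0.23 and the sheddase gene adam9a by 1.59 ± 0.18. ctsla, a lysosomal cathepsin gene, read 0.736, 1.11 and 1.00 at 1 dpa, against 0.226, 0.260 and 0.185 in unamputated fins, a rise of 2.08 ± 0.19. The gelatinase gene mmp9 was not called (0.56 ± 0.34), with values of 1.28, 0.742 and 0.700 at 1 dpa, against 0.631, 0.677 and 0.488 in unamputated fins. The fall was that of prss23, a serine protease gene (−1.34 ± 0.22).

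Of 17 collagen genes 1 rose and 3 fell. col14a1a, of a collagen that coats fibrils, read 0.214, 0.272 and 0.307 at 1 dpa, against 1.46, 2.07 and 1.47 in unamputated fins, a fall of 2.65 ± 0.30. col9a3, of a cartilage collagen, fell by 1.26 ± 0.18, and col15a1a, of a basement membrane collagen, rose by 2.26 ± 0.39. The paralog col15a1b fell by 1.07 ± 0.40. This call was lost with the 2 groups alone, after centring or quantile normalization, and without array 2, 3, d or e. Of 15 processing genes 4 rose and 11 were not called (6 rose without array b). The prolyl isomerase genes fkbp10b and fkbp14 rose by 1.58 ± 0.19 and 1.18 ± 0.26, and the lysyl hydroxylase gene plod3 by 1.32 ± 0.26. The collagen chaperone gene serpinh1b read 0.0573, 0.946 and 0.963 at 1 dpa, against 0.167, 0.198 and 0.281 in unamputated fins, with array b under all unamputated arrays and d and e above them, and was not called (0.83 ± 0.89).

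In bone, 9 of 41 genes fell and 4 rose (7 and 2 without array d). col10a1a and col10a1b encode the type X collagen that fish osteoblasts make. col10a1a read 26.6, 6.41 and 14.4 at 1 dpa, against 151, 262 and 147 in unamputated fins, a fall of 3.73 ± 0.43 (limma adjusted p = 0.00028). col10a1b read 73.8, 9.43 and 42.2 at 1 dpa, against 394, 601 and 402 in unamputated fins, a fall of 3.89 ± 0.58. In both genes the 3 regenerating arrays spread widely, with d lowest, and all lay under the unamputated arrays. runx2b, a factor that starts the osteoblast fate, fell by 1.2 ± 0.21, but its other probe set was at −0.19, and sp7, a later osteoblast factor, was not called (−0.21 ± 0.15). alpi.1, an alkaline phosphatase gene, rose by 2.61 ± 0.45. spp1, which encodes the bone matrix protein osteopontin, also made by macrophages in mammals, rose by 2.73 ± 0.74 at 6.63, 26.7 and 7.85 at 1 dpa, against 2.91, 3.39 and 0.483 in unamputated fins, and its call was lost without array d (2.1, limma adjusted p = 0.05) and with the 2 groups fitted alone. Of 7 genes of bone resorption 0 were called in limma, and 3 were higher and 1 lower at an unadjusted p under 0.05.

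No gene of the actinotrichia and fin fold list rose, and 9 of 33 fell (6 without array d; without array b 7 fell and 2 rose). The actinodins and1, and2 and and3 encode proteins of the actinotrichia. and1 read 0.00289, 0.0202 and 0.00672 at 1 dpa, against 0.0306, 0.0383 and 0.0306 in unamputated fins, and and3 read 0.000624, 0.000613 and 0.000658 at 1 dpa, against 0.00271, 0.00186 and 0.00162 in unamputated fins, with log2 changes of −2.17 ± 0.54 and −1.67 ± 0.37. and2 changed by −1.14 ± 0.34, a call lost without array b or 2 and after centring, and turned to 0.64 (not called) by quantile normalization, under which and3 was not called either (−0.22). All ratios of these genes were under 0.04 in both groups. A floor of 0.1 sets all of them to the same value, so the absence of change under it was fixed in advance. Whether these 3 falls lie near the limit of detection cannot be told from ratios without an absolute level. evx1, a homeobox gene needed for ray joints, read 0.961, 0.683 and 0.905 at 1 dpa, against 2.77, 3.91 and 1.79 in unamputated fins, a fall of 1.68 ± 0.27, and the homeobox gene dlx2b fell by 1.52 ± 0.35.

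Of 37 genes known from the blastema 15 rose and 1 fell, with a median of 0.75 (all genes −0.09). Without any single array 14 or 15 rose. inhbaa, the activin subunit needed for blastema formation, read 11.3, 9.01 and 7.14 at 1 dpa, against 0.955, 0.858 and 0.410 in unamputated fins, a rise of 3.69 ± 0.31 (another probe set 3.45). aldh1a2, which makes retinoic acid, read 0.852, 1.24 and 1.00 at 1 dpa, against 0.0621, 0.0712 and 0.126 in unamputated fins, a rise of 3.63 ± 0.25 (limma adjusted p = 2.6e-05). mdka, the gene of the growth factor midkine, read 1.00, 1.38 and 1.09 at 1 dpa, against 0.112, 0.134 and 0.104 in unamputated fins, a rise of 3.30 ± 0.16 (limma adjusted p = 6.8e-06). In these 3 genes array b lay with d and e. igf2b, an insulin-like growth factor gene, read 7.56, 11.5 and 11.9 at 1 dpa, against 1.02, 1.21 and 0.951 in unamputated fins, a rise of 3.26 ± 0.27. lef1, the DNA-binding partner of beta-catenin, read 4.79, 9.65 and 5.50 at 1 dpa, against 0.799, 0.649 and 0.684 in unamputated fins, a rise of 3.16 ± 0.25. For all 5 genes the lowest 1 dpa array was several times the highest unamputated one. hspd1, a mitochondrial chaperone gene whose loss blocks regeneration in zebrafish, rose by 1.95 ± 0.27, and wnt5b by 1.56 ± 0.41 (not called under quantile normalization, 1.26, limma adjusted p = 0.053). The blastema homeobox genes msx1b (0.39 ± 0.20) and msx2b (0.79 ± 0.50) were not called at this day. The ligand gene fgf20a had no probe set assigned.

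Retinoic acid genes moved in both directions. Of 26, 3 rose and 5 fell (3 fell without array b). The share that rose was near that of all genes (10.4%, with 7.1% lower). Beside aldh1a2, crabp2b, whose protein carries retinoic acid to its receptors, read 1.25, 1.80 and 1.57 at 1 dpa, against 0.119, 0.120 and 0.149 in unamputated fins, a rise of 3.56 ± 0.16 (limma adjusted p = 5.4e-06). cyp26a1, whose enzyme breaks retinoic acid down, read 21.6, 24.5 and 25.5 at 1 dpa, against 4.71, 5.11 and 5.37 in unamputated fins, a rise of 2.24 ± 0.18. The 3 arrays of each group were close together for both genes. stra6, the membrane receptor that takes up retinol, read 0.863, 0.836 and 0.804 at 1 dpa, against 5.50, 3.94 and 3.74 in unamputated fins, a fall of 2.38 ± 0.23, and rbp4, the blood carrier of retinol, fell by 2.72 ± 0.54. cyp26b1, a further gene of retinoic acid breakdown, read 1.02, 3.30 and 2.19 at 1 dpa, against 3.75, 5.22 and 3.52 in unamputated fins (−1.07 ± 0.38, a fall lost with the 2 groups alone and without any single array other than d). This fall was also lost after centring (−0.93, limma adjusted p = 0.076). With the probe sets of cyp26b1 averaged it was −0.51, under 2-fold. nrip1b, a corepressor gene, fell by 1.31 ± 0.21.

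In the Wnt pathway 8 of 48 genes rose and 8 fell. Of the ligands wnt11 fell by 2.42 ± 0.53, and wnt10a was not called (0.49 ± 0.16). The receptor gene fzd2 rose by 1.26 ± 0.12 and fzd7a fell by 1.98 ± 0.35. Among secreted inhibitors, sfrp1a (1.59 ± 0.35) and dkk3b (1.77 ± 0.37) were higher, and dkk2 (−1.86 ± 0.38) and wif1 (−1.60 ± 0.24) lower. wif1 read 2.01, 1.05 and 1.51 at 1 dpa, against 4.68, 5.15 and 3.71 in unamputated fins, and dkk2 2.13, 0.667 and 0.999 at 1 dpa, against 4.0, 3.53 and 4.78 in unamputated fins. In both genes all 1 dpa arrays were lower, as for 32.5% of all genes. Of 28 Fgf genes 1 rose and 2 fell (10.4% and 7.1% of all genes). fgfr4, a receptor gene, fell by 1.83 ± 0.29, and fgfbp2a, whose protein binds Fgf ligands, by 2.58 ± 0.65, at 32.6, 2.94 and 9.87 at 1 dpa, against 57.3, 68.9 and 51.5 in unamputated fins (−1.71 without d, and not called with the 2 groups alone, limma adjusted p = 0.052). The Fgf target etv4 rose by 1.23 ± 0.34, and not without array d (0.93, limma adjusted p = 0.057).

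Of 14 Hedgehog genes 3 rose and 2 fell (1 rose without array e). gli2a, a transcription factor of the pathway, rose by 1.51 ± 0.27, and hhip and gas1b, whose proteins bind the ligand, fell by 1.53 ± 0.36 and 1.17 ± 0.24. The ligand gene shha was not called (−0.41 ± 0.35). In the Notch list of 28 genes 1 rose and 6 fell (3 fell without array d). The ligand gene jag1a read 17.6, 21.4 and 17.1 at 1 dpa, against 2.26, 1.72 and 2.22 in unamputated fins, a rise of 3.18 ± 0.20 (limma adjusted p = 2.1e-05). The spread within groups was small, and all 1 dpa arrays were higher, as for 24.0% of all genes. The paralog of jag1a, jag1b, fell by 1.18 ± 0.28, which was under 2-fold without array d (−0.92). dlc, another ligand gene, fell by 1.27 ± 0.16 (other probe sets −2.15 and −2.04), and the target gene hes6 by 1.12 ± 0.24, which fell short of 2-fold after centring or quantile normalization.

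Of 56 Bmp, activin and Tgfb genes 5 rose and 10 fell (3 rose without array 1 or d, and 6 fell without e). inhbb, another activin subunit gene, moved against inhbaa, at 0.117, 0.204 and 0.179 at 1 dpa, against 0.928, 0.855 and 0.783 in unamputated fins, a fall of 2.40 ± 0.25. The ligand genes bmp5 and bmp3 fell by 2.24 ± 0.30 and 2.19 ± 0.49. The Bmp antagonist nog3 read 2.22, 2.68 and 3.19 at 1 dpa, against 11.3, 11.1 and 9.50 in unamputated fins, a fall of 1.99 ± 0.23, and the target id4 fell by 2.16 ± 0.54. skib, a repressor of Smad signalling, rose by 1.53 ± 0.28. Of 13 receptors and transducers 0 were called in limma, and 3 were higher and 2 lower at an unadjusted p under 0.05.

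Other growth signals gave 6 rises and 6 falls in 35 genes. Beside igf2b, igf1rb, a receptor gene, rose by 1.61 ± 0.27 (another probe set 0.80, not called) and igfbp1a, an Igf binding protein known to respond to low oxygen, by 2.03 ± 0.43. igfbp2a read 0.0897, 0.0337 and 0.0650 at 1 dpa, against 0.293, 0.451 and 0.284 in unamputated fins, a fall of 2.53 ± 0.35. met, the receptor of hepatocyte growth factor, read 1.17, 2.28 and 3.37 at 1 dpa, against 0.303, 0.253 and 0.155 in unamputated fins, a rise of 3.19 ± 0.44. Of 6 Hippo genes 3 fell, among them the kinases lats1 (−1.25 ± 0.18) and stk3 (−1.73 ± 0.45), with ccn2a as given above. lrig1, a brake on Egf receptors, changed by −1.1 ± 0.15, which fell short of 2-fold after centring (−0.95).

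In the epidermis list of 82 genes 10 rose and 15 fell (5 and 11 without array e, 9 and 10 without array 1, 8 and 10 without array d). krt18a.1, a keratin of simple epithelia, read 2.44, 2.74 and 2.78 at 1 dpa, against 0.341, 0.352 and 0.235 in unamputated fins, a rise of 3.12 ± 0.17 (limma adjusted p = 1e-05). The basal keratin gene krt5 (0.52 ± 0.14) and the basal factor tp63 (−0.01 ± 0.13) were not called. elf3, a factor of differentiating epithelium, read 0.367, 0.767 and 0.550 at 1 dpa, against 3.26, 2.51 and 3.05 in unamputated fins, a fall of 2.45 ± 0.32, and lye, a gene of the lymphocyte antigen family, fell by 2.17 ± 0.41. The tight junction gene cldn3c fell by 1.77 ± 0.31, and cldni, another, was at −0.16 ± 0.14. txnb, a thioredoxin gene, rose by 3.55 ± 0.56, at 1.26, 2.38 and 1.60 at 1 dpa, against 0.145, 0.0534 and 0.383 in unamputated fins.

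Markers of other tissues of the fin were also counted. Of 60 skeletal muscle genes 2 rose and 1 fell (neither rise was called without array e), with pygmb, glycogen phosphorylase of muscle, at −1.54 ± 0.21. Of 24 erythrocyte genes 1 rose, urod (1.25 ± 0.34), a call lost without array 1 or e (both limma adjusted p = 0.052). Of 23 endothelial genes 1 rose and 4 fell (1 fell without array d, and 2 without array 1, 2 or e), of which klf2a and klf2b were named above, and the vessel marker kdrl was not called (0.53 ± 0.17). Of 18 pigment cell genes 2 rose and 2 fell (neither rise was called without array 3), among them tfap2a (−1.39 ± 0.17). In 37 nerve and glia genes 4 rose and 4 fell (2 fell without array d). gap43, a gene of growing axons, read 1.51, 2.41 and 3.62 at 1 dpa, against 0.250, 0.268 and 0.283 in unamputated fins, a rise of 3.15 ± 0.27, and pmp22a, of peripheral myelin, fell by 1.51 ± 0.19. The tubulin genes tubb5 and tuba1b are also in this list.

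**Figure D3:**
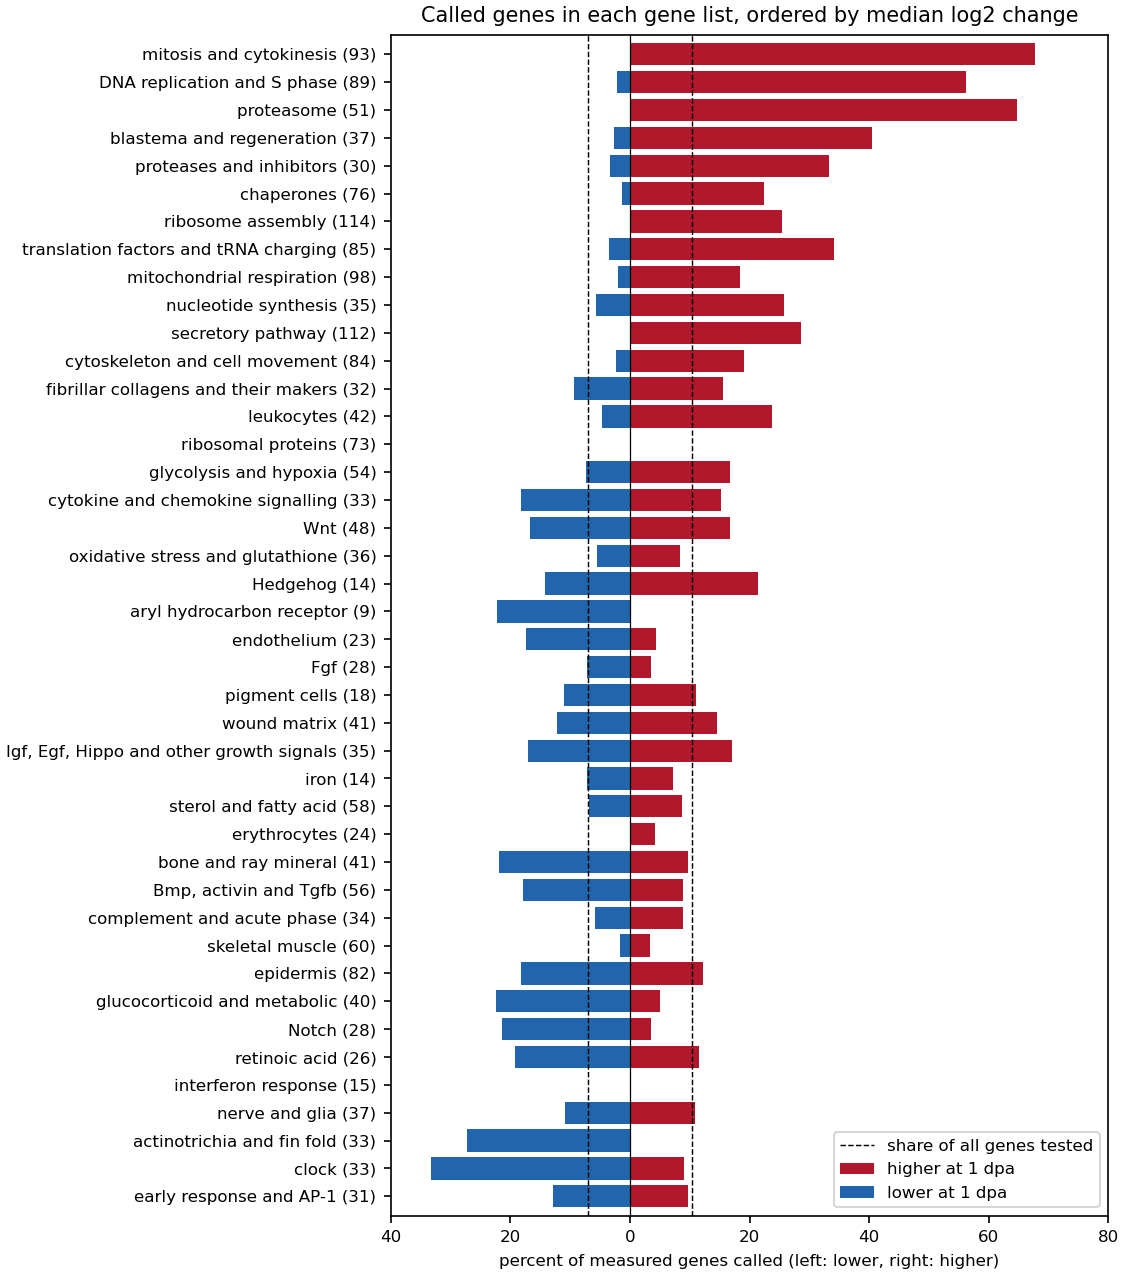
For each of 42 gene lists (number of genes measured in brackets) the bar to the right gives the percent of genes called higher at 1 dpa and the bar to the left the percent called lower, with dashed lines at the shares of all genes (10.4% and 7.1%). Mitosis, DNA replication and the proteasome have the longest bars to the right, and the clock and the actinotrichia lists have the longest to the left. The lists were chosen with earlier results of these data known.

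Genes of DNA replication and cell division rose together. Of 59 genes that act at replication origins and forks 44 rose and 15 were not called, with a median of 1.42. rpa2, a subunit of the single-strand binding protein, read 2.79, 3.73 and 4.40 at 1 dpa, against 0.607, 0.360 and 1.00 in unamputated fins, a rise of 2.57 ± 0.32. orc4, of the origin recognition complex, read 4.37, 4.2 and 4.50 at 1 dpa, against 0.821, 0.457 and 1.12 in unamputated fins, a rise of 2.54 ± 0.28. The replication clamp gene pcna read 1.48, 1.56 and 1.49 at 1 dpa, against 0.487, 0.412 and 0.725 in unamputated fins, a rise of 1.52 ± 0.20, the helicase subunit mcm5 rose by 1.47 ± 0.24, and the histone chaperone chaf1b by 2.33 ± 0.23. Unamputated array 3 was the highest of its group for each of these 5 genes, and still under all 1 dpa arrays. All 1 dpa arrays were higher for 24.0% of all genes. Of 12 genes for deoxynucleotides 4 rose, among them dut (3.53 ± 0.39), tyms (2.23 ± 0.35) and rrm1 (2.17 ± 0.27), and 2 fell. The falls were those of ak4 (−1.63 ± 0.45) and rrm2b (−1.33 ± 0.39). ak4 was not called with the 2 groups alone or without array 2, and rrm2b not without array 3, d or e. In purine and pyrimidine synthesis 5 of 23 rose, led by adsl (1.85 ± 0.25).

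Of 93 genes of mitosis and cytokinesis 63 rose and 30 were not called, with a median of 1.42, and between 52 and 65 rose without any single array. cdk1, the mitotic kinase, read 1.26, 3.40 and 3.55 at 1 dpa, against 0.366, 0.220 and 0.702 in unamputated fins, a rise of 2.69 ± 0.47. ccnb1, its cyclin, read 0.763, 2.27 and 2.08 at 1 dpa, against 0.208, 0.135 and 0.692 in unamputated fins, a rise of 2.51 ± 0.57. plk1, a kinase of the spindle poles, read 0.783, 1.85 and 2.51 at 1 dpa, against 0.157, 0.0559 and 0.710 in unamputated fins, a rise of 3.06 ± 0.75. In these 3 genes array b was the lowest of its group and unamputated array 3 the highest of its own. The groups did not overlap, as for 24.0% of all genes in this direction. The condensin genes smc2 and smc4 rose by 3.12 ± 0.43 and 3.18 ± 0.41, smc2 with another probe set at 0.43 (not called), and kif11, a spindle motor, by 2.68 ± 0.52. For 34 mitotic kinases and cyclins the median over genes, relative to the unamputated mean, was 1.05, 1.77 and 1.77 on arrays b, d and e, against −0.07, −0.40 and 0.53 on unamputated arrays 1, 2 and 3. mki67, a common proliferation marker, was not called with the probe set used (−0.52 ± 0.23), while a further probe set was called at 2.17 and the other was at −0.04. In the control of entry into S phase 6 of 30 genes rose and 2 fell (9 rose without array 3, and neither fall was called without array 1, 3 or d). The cyclin gene ccna2 rose by 2.00 ± 0.50 (not called with the 2 groups alone, limma adjusted p = 0.052) and cks1b by 2.89 ± 0.52, whereas ccnd1, the cyclin of G1, fell by 1.02 ± 0.18 (another probe set −1.65, called). The first ccnd1 probe set fell short of 2-fold without array 1, 3 or d (−0.93 to −0.95) and after centring (−0.87). The growth regulator myca (0.00 ± 0.16) and odc1, of polyamine synthesis (−0.78 ± 0.36), were not called.

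**Figure D4:**
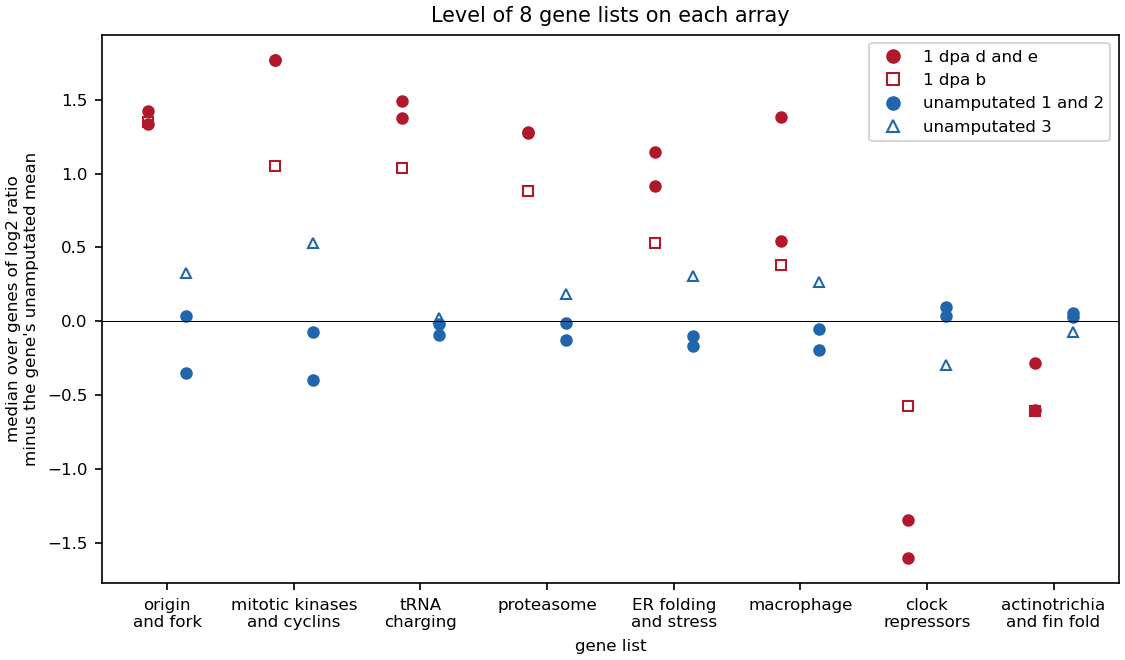
For 8 gene lists, each point is the median over genes of the log2 ratio on 1 array minus the gene's unamputated mean, 1 dpa (red, array b as an open square) left of unamputated (blue, array 3 as an open triangle). Array b lies with d and e for replication genes, and between them and the unamputated arrays for mitotic kinases, proteasome and clock repressors.

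Of 114 genes of ribosome assembly 29 rose and 85 were not called, with a median of 0.63. kri1 read 1.71, 3.03 and 3.10 at 1 dpa, against 0.576, 0.587 and 0.512 in unamputated fins, a rise of 2.18 ± 0.31, the exosome gene exosc9 rose by 2.02 ± 0.24 and wdr18 by 1.99 ± 0.17. fbl, the nucleolar methyltransferase fibrillarin, stayed under 2-fold (0.73 ± 0.20). Of 73 ribosomal protein genes 0 were called in limma, with a median of 0.09 and changes from −0.51 to 0.77, all under 2-fold. At an unadjusted p under 0.05, 20 of them were higher and 3 lower. Of 21 genes that charge tRNAs 14 rose and 7 were not called, with a median of 1.29. wars1, for tryptophan, read 3.65, 3.42 and 4.92 at 1 dpa, against 0.652, 0.406 and 0.896 in unamputated fins, a rise of 2.67 ± 0.36, and iars1, for isoleucine, rose by 2.38 ± 0.25. Of 64 initiation and elongation genes 15 rose and 3 fell (1 fell without array e). pabpc4 rose by 2.44 ± 0.25, eef1e1, of the tRNA charging complex, by 1.92 ± 0.29, and eif4a2, a helicase gene of initiation, fell by 1.41 ± 0.28.

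Of 51 proteasome genes 33 rose and 18 were not called, with a median of 1.11 (28 to 35 rose without any single array). psmb7, of the catalytic core, read 0.883, 1.17 and 1.64 at 1 dpa, against 0.0896, 0.131 and 0.0910 in unamputated fins, a rise of 3.54 ± 0.28 (limma adjusted p = 5.6e-05), and psmc6 and psmd13, of the regulatory particle, rose by 1.70 ± 0.20 and 1.97 ± 0.27. In the endoplasmic reticulum 18 of 41 folding and stress genes rose and 23 were not called. hspa5, the main chaperone there, read 1.55, 2.19 and 1.58 at 1 dpa, against 0.464, 0.342 and 0.346 in unamputated fins, a rise of 2.2 ± 0.20, hsp90b1 rose by 2.45 ± 0.24, and fkbp9 by 2.92 ± 0.30. Of 37 translocon and glycosylation genes 9 rose (6 to 12 without any single array), among them tram1 (1.92 ± 0.28) and nansa, of sialic acid synthesis (1.47 ± 0.16). Of 34 coat and Golgi genes 5 rose, among them sec31a (2.58 ± 0.43), lman1 (2.15 ± 0.23) and ykt6 (2.55 ± 0.31). Of 50 cytosolic chaperones 11 rose and 1 fell, hspa4a by 1.45 ± 0.22 and hsp70.3 by 1.81 ± 0.42, and the fall was that of hsf2, a heat shock factor gene (−1.55 ± 0.33).

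Mitochondrial genes had a median of 0.56, with 18 of 98 respiration genes higher and 2 lower. idh2, of the citrate cycle, read 0.654, 1.44 and 1.31 at 1 dpa, against 0.155, 0.139 and 0.126 in unamputated fins, a rise of 2.94 ± 0.30, and atp5if1a, an inhibitor of the ATP synthase, rose by 2.45 ± 0.31. cox4i2, an isoform of cytochrome oxidase subunit IV known to be used at low oxygen in mammals, read 0.629, 0.243 and 0.195 at 1 dpa, against 1.64, 1.90 and 0.968 in unamputated fins, a fall of 2.22 ± 0.40. Of 30 glycolysis genes 7 rose and 23 were not called. ldha, lactate dehydrogenase, read 2.94, 3.38 and 3.38 at 1 dpa, against 0.565, 0.510 and 0.518 in unamputated fins, a rise of 2.60 ± 0.17 (limma adjusted p = 2.3e-05), and slc16a3b, a lactate exporter, rose by 3.11 ± 0.63. pgk1 rose by 1.55 ± 0.17 with 1 probe set and was at −0.34 with the other. In the hypoxia response 2 of 24 rose and 4 fell, ndrg1a rising by 1.57 ± 0.21 and bnip3lb falling by 1.61 ± 0.23 (another probe set −0.80, not called). epas1a, the hypoxia factor, fell by 3.12 ± 0.78 with 1 probe set and was not called with its others (−0.81 and −0.67).

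In lipid metabolism 5 of 58 genes rose and 4 fell (3 and 2 without array d or e), shares near those of all genes (10.4% and 7.1%). hadhab, of fatty acid oxidation, rose by 2.00 ± 0.21, and acsl1a, which activates fatty acids, fell by 2.00 ± 0.27 with 4 further probe sets also called lower. Of 36 oxidative stress genes 3 rose and 2 fell, again near the shares of all genes. selenop, a selenium carrier, read 0.245, 0.124 and 0.103 at 1 dpa, against 0.815, 1.00 and 0.606 in unamputated fins, a fall of 2.43 ± 0.31. Of 14 iron genes the ferritin gene fthl28 rose by 1.83 ± 0.30. In the list of glucocorticoid and metabolic genes 9 of 40 fell and 2 rose. Beside tat and ppp1r3cb, fbp1a, of glucose synthesis, fell by 1.96 ± 0.33 and ppp1r3b, of glycogen, by 2.16 ± 0.47, while sat1a.2, of polyamine turnover, rose by 1.93 ± 0.28.

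The aryl hydrocarbon receptor list, of interest because the vehicle came from a dioxin study, gave 2 falls in 9 genes, cyp1a and nqo1, a quinone reductase gene (−1.30 ± 0.33), and neither was called without array d.

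Of 33 clock genes 11 fell and 3 rose. Without array d, e or 2, 7 fell, and without b 7 rose. cry1b, a cryptochrome repressor, read 0.493, 0.224 and 0.328 at 1 dpa, against 3.72, 5.86 and 2.77 in unamputated fins, a fall of 3.57 ± 0.41. bhlhe40, another repressor, read 0.520, 0.411 and 0.523 at 1 dpa, against 3.96, 3.41 and 4.15 in unamputated fins, a fall of 2.99 ± 0.18 (limma adjusted p = 1.6e-05). Both genes were low on all 3 regenerating arrays. Its relative bhlhe41 read 9.61, 0.442 and 0.747 at 1 dpa, against 14, 11.5 and 9.35 in unamputated fins, where array b overlapped the unamputated values, and its call (−2.96 ± 0.91) was lost without array 1, 2, d or e (limma adjusted p 0.06 to 0.085). tefa, an output factor, read 2.38, 0.542 and 0.634 at 1 dpa, against 4.77, 4.46 and 5.54 in unamputated fins, a fall of 2.39 ± 0.44, and rorab, a receptor that drives bmal genes, fell by 2.35 ± 0.36. bmal2, an activator, rose by 1.44 ± 0.19 (another probe set 1.69). For 15 repressors and cryptochromes the median relative to the unamputated mean was −0.57, −1.60 and −1.34 on arrays b, d and e. The time of day of collection is not given in the labels, and its part in these values was not tested.

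Of 84 cytoskeleton genes 16 rose and 2 fell. marcksa and marcksb, which link actin to the membrane, rose by 3.26 ± 0.32 (another probe set 0.34, not called) and 2.50 ± 0.22, and tpm4a, a tropomyosin gene, read 8.15, 6.24 and 9.48 at 1 dpa, against 0.923, 1.26 and 0.988 in unamputated fins, a rise of 2.90 ± 0.22. acta2, the actin of smooth muscle and myofibroblasts, read 1.40, 0.863 and 0.989 at 1 dpa, against 2.84, 2.93 and 3.36 in unamputated fins, a fall of 1.51 ± 0.31. Of 18 tubulin genes 6 rose and 12 were not called. tuba8l3 read 0.815, 1.28 and 1.59 at 1 dpa, against 0.0840, 0.131 and 0.0983 in unamputated fins, a rise of 3.53 ± 0.28.

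The later days show where 1 dpa differed within regrowth. The sizes of the differences from 3 and 5 dpa use no unamputated array, and all 3 days had the same injection. Their standard errors and calls come from the model over all 12 adult arrays, the unamputated ones included. Against 3 dpa 385 probe sets (2.48%) were called, 61 higher (0.393%) and 324 lower (2.09%) at 1 dpa, and against 5 dpa 956 (6.17%), 427 higher (2.75%) and 529 lower (3.41%). Over genes the shares were 0.444% and 2.31% against 3 dpa, and 3.59% and 3.49% against 5 dpa. gda was higher at 1 dpa, with ratios of 13.9, 9.58 and 12.6 at 1 dpa, 0.928, 0.660 and 1.12 at 3 dpa and 6.39, 3.38 and 4.16 at 5 dpa (1 minus 3 dpa 3.75 ± 0.26, limma adjusted p = 6.7e-05). gap43 exceeded 3 dpa by 2.79 ± 0.27 and 5 dpa by 2.54 ± 0.27. fosl1b exceeded them by 2.42 ± 0.27 and 3.24 ± 0.27, bhlha9, a basic helix-loop-helix gene, by 2.33 ± 0.24 and 2.60 ± 0.24, and grna.1 by 2.2 ± 0.24 and 1.74 ± 0.24. hbegfb, a ligand of the Egf receptor, was not called against unamputated fin (0.82 ± 0.32) and was higher at 1 dpa than at both later days (1.93 ± 0.32 and 2.04 ± 0.32, the first not called with the 2 groups alone, limma adjusted p = 0.062). ntrnl2 read 12.4, 22.2 and 14.8 at 3 dpa and 1.24, 0.660 and 3.40 at 5 dpa, 2.51 ± 0.49 and 6.02 ± 0.49 under 1 dpa, and jac4 read 11.4, 20.1 and 13.1 at 3 dpa and 0.988, 0.788 and 4.52 at 5 dpa. The 3 dpa difference of both was lost without array d or e or 3 dpa array a or c (limma adjusted p 0.06 to 0.093).

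Genes of bone and actinotrichia were among those lower at 1 dpa than later. ifitm5, a gene of bone-forming cells, read 2.84, 0.889 and 2.04 at 1 dpa, 254, 153 and 236 at 3 dpa and 260.3, 295 and 322 at 5 dpa, a difference of −6.92 ± 0.41 to 3 dpa (limma adjusted p = 4.5e-05). enam, named for the enamel matrix protein enamelin, differed by −7.08 ± 0.79 and −7.32 ± 0.79 and was not called against unamputated fin (0.51 ± 0.79). and1 differed by −6.33 ± 0.54 and −6.81 ± 0.54, col10a1a by −5.80 ± 0.43 and −6.08 ± 0.43, and ecrg4a, which encodes a secreted peptide precursor, by −4.21 ± 0.36 and −5.65 ± 0.36. Of the 32 collagen and collagen processing genes 11 were lower at 1 than at 3 dpa (4 with the 2 groups alone), and 13 were lower than at 5 dpa. Over all genes 2.31% were lower at 1 than at 3 dpa, and 3.49% lower than at 5 dpa. fkbp10b, already above unamputated fin at 1 dpa, was −2.01 ± 0.19 and −1.80 ± 0.19 relative to the later days. shha (−2.19 ± 0.35), msx1b (−1.38 ± 0.20) and bmp5 (−2.03 ± 0.30) were also lower than at 3 dpa, msx1b not with the 2 groups alone (limma adjusted p = 0.078). pcp4a, of a calmodulin binding protein, rose at 1 dpa (2.11 ± 0.38) and was −3.62 ± 0.38 relative to 3 dpa.

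Over all genes 3.59% were higher at 1 than at 5 dpa. Ribosome assembly was the list with the most genes higher at 1 than at 5 dpa, with 61 of 114 genes higher, 53 not called and a median difference of 1.02. Without any single array 54 to 64 were higher. fbl read 2.77, 2.07 and 2.68 at 1 dpa and 0.963, 0.897 and 0.935 at 5 dpa, a difference of 1.42 ± 0.20. Of 76 chaperone genes 14 were higher at 1 than at 5 dpa, and of 89 genes of DNA replication 13, a count that fell to 2 without 5 dpa array c and to 6 to 11 without any other single array. Of 93 mitosis genes 0 were called against either day in limma, and at an unadjusted p under 0.05 there were 4 higher and 2 lower against 3 dpa, and 12 higher and 1 lower against 5 dpa. aldh1a2, mdka, crabp2b, lef1 and igf2b were not called against 3 or 5 dpa, with differences from −0.89 to 0.95.

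**Figure D5:**
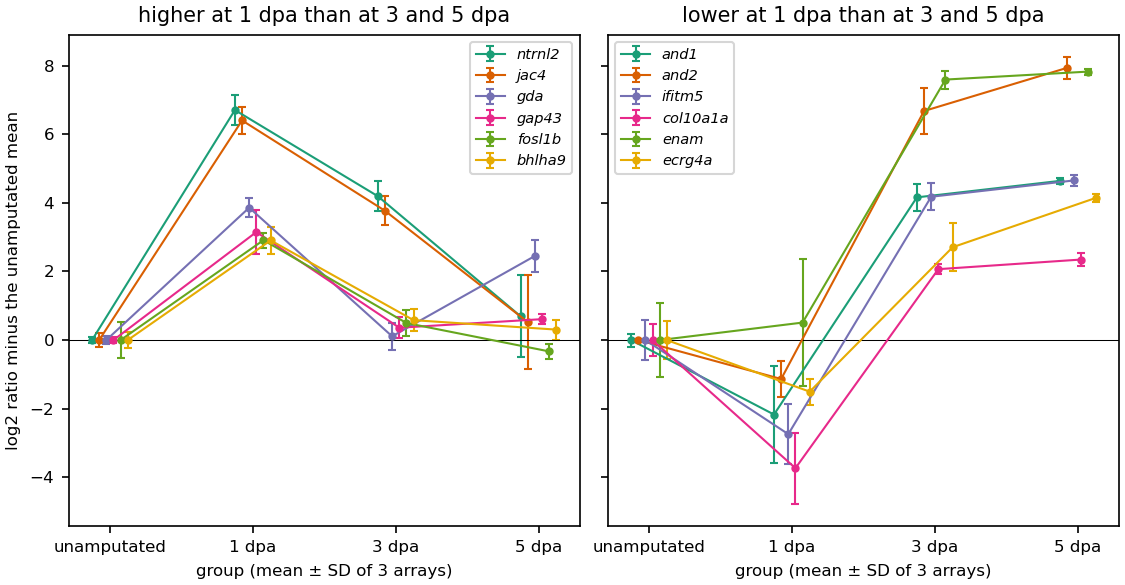
Mean log2 ratio ± SD of 3 arrays, relative to the unamputated mean, in unamputated fin and at 1, 3 and 5 dpa, for 6 genes higher at 1 dpa than at 3 and 5 dpa (left) and 6 lower (right). ntrnl2 and jac4 peak at 1 dpa, and and1, and2, ifitm5, col10a1a and ecrg4a lie under the unamputated mean at 1 dpa and above it later.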

How the data were processed

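RNA from 3 pools of adult caudal fin per group was measured on single-colour Affymetrix zebrafish arrays. The deposited values are linear ratios, for which the submitters' processing notes name GCRMA without a version, and which the authors then divided, probe set by probe set, by a value that no label states. Of 15617 probe sets 9600 hold the value 1 on exactly 1 array. Here log2 of the ratios was fitted with limma 3.58.1 in R 4.3.3 (lmFit, eBayes) over 12 adult arrays (unamputated, 1, 3 and 5 dpa), and Benjamini-Hochberg adjustment ran over 15502 non-control probe sets. No value was dropped or imputed. The fit was tested on simulated data with independent normal noise and no array differences. That test does not cover the differences between arrays given above. Values after ± are standard errors of the model unless named SD. The number of arrays limits the precision. Nothing states that the pools of a group came from separate experiments, so p-values measure the spread between these pools.

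Genes were named through the platform annotation, symbols being updated through the current zebrafish gene tables. Each gene was represented by 1 probe set chosen by its name (suffix _at before _a_at, _s_at and _x_at, then the lowest number). The genes named include 47 fixed genes (40 measured). They also include the 10 with the largest change in each direction per comparison, among genes called and without overlap of the groups. From each role of each list came up to 4 called genes with the largest change, whatever its direction. Up to 2 called genes with the largest change in each direction were added where not already among these. The members and the 42 lists were chosen with earlier results of these data known. A gene can stand in several lists. From the lists 11 symbols were left out because they matched only as a synonym of another gene. The description of the unamputated arrays names days 1, 2 and 3, the protocol days 1, 3 and 5, and no use was made of these days. Alternatives were the 2 groups alone, arrays centred on their median, quantile normalization, probe sets above the median mean, a floor of 0.1, limma's trend and robust options, no minimum change, averaging or otherwise choosing probe sets, and leaving out each array in turn.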

Additional observations from a re-analysis of the deposited data

Results flagged for a closer look

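The following genes were lower at 1 dpa than in unamputated fin and higher at a later day than in unamputated fin, each called, and the difference between the days, tested in the same limma model, was called as well. As both changes share the unamputated arrays, the difference between the days, whose size does not use them, is the value given. Its call comes from the model over all adult arrays, the unamputated ones included. The difference of 1 minus 3 dpa was −5.80 for col10a1a, −7.81 for and2, −6.92 for ifitm5, −6.33 for and1, −4.21 for ecrg4a, −3.52 for egfem1, −2.71 for lamc3 and −2.64 for dlx1a. The difference of 1 minus 5 dpa was −6.08 for col10a1a, −9.07 for and2, −7.40 for ifitm5, −6.81 for and1, −5.65 for ecrg4a, −4.04 for egfem1, −2.63 for bgnb, −2.79 for lamc3, −4.10 for and3 and −3.25 for dlx1a. With a floor of 0.1 the calls at 1 dpa against unamputated fin were lost for and1, and2, and3, ecrg4a and egfem1, and so were the differences between days of and2 from 3 dpa (−0.67, limma adjusted p = 0.24) and of and3 from 5 dpa (0.00, all values at the floor). For and1, and2 and and3 all ratios at 1 dpa and in unamputated fin were under this floor, so the loss of these calls was fixed in advance. The 1 dpa fall of and2 was also lost without array b or 2 and after centring (−0.99). Quantile normalization turned and2 to 0.64 (not called), and under it and3 was not called (−0.22, limma adjusted p = 0.61). The difference of dlx1a from 3 dpa was not called with the 2 groups alone (limma adjusted p = 0.055). The 1 dpa fall of dlx1a was lost without array d (−1.03, limma adjusted p = 0.055) and that of bgnb fell short of 2-fold without array 2 or d (−0.92 and −0.82), after centring (−0.86) and after quantile normalization (−0.83).

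The 18 hybridisation control probe sets, which no comparison of genes used, were lower by 1.44 on the log2 scale at 1 dpa than on unamputated arrays, with no overlap of the arrays. They were as low at 3 dpa (−0.77, −1.09 and −1.07) and 5 dpa (−0.89, −0.84 and −0.72). Their part in the gene results was not tested.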

How the results depend on the processing

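For 1 dpa against unamputated fin the number of called probe sets was 2492, and 2106 to 3024 without any single array. It was 7160 with no minimum change, 2641 higher and 4519 lower, and stayed within 1.5 times under the other alternatives. Centring moved the share of calls that were higher to 67.3%, against 54.0% before (1680 higher and 818 lower), and no minimum change to 36.9%. Against 3 dpa the 385 calls became 139 with the 2 groups alone, 215 among probe sets above the median mean, 696 with no minimum change, and 237 (without 3 dpa array c) to 535 (without 1 dpa array b) without any single array. Against 5 dpa the 956 calls became 2151 with no minimum change and 770 to 1245 without any single array. Of 310 named genes 284 were called against unamputated fin, and 229 were still called without any single array. Genes other than the fixed ones were named only if called in a comparison, so these counts do not measure stability over all genes. Of the 2492 called probe sets 79.6% (without array d) to 96.1% (without array b) were called in the same direction with 1 array left out. Directions turned for and2 under quantile normalization (0.64), and with the probe set of highest mean for wls (−1.43), insra (0.44), tncb (4.13) and mki67 (2.17), tncb also with probe sets averaged (1.88). The cause was not tested. No paired analysis was possible because the 1 dpa arrays are lettered b, d and e and the unamputated arrays numbered 1 to 3, and the letters of the 1, 3 and 5 dpa arrays share only b.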

Other observations

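ntrnl2 and jac4, the genes with the largest rises, lie on the same chromosome in the RefSeq annotation of the zebrafish genome (assembly GRCz12tu). Whether other genes lie between them was not established. Their ratios ran nearly in parallel over the 1 dpa arrays b, d and e (64.8, 102 and 114 for ntrnl2, and 65.3, 106 and 104 for jac4). This pair was singled out after its values were seen, and whether the probe sets read separate transcripts was not tested.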
